A study of Mus musculus with 36 samples.

Results

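The 10 genes described here are used to recognise astrocytes, and they were followed in cultured mouse astrocytes given a stress steroid, its antagonist, or both. They are Aldh1l1, Ndrg2, Mlc1, Aldoc, Acsbg1, Fgfr3, Gpr37l1, S100b, Sox9 and Id3, taken by gene symbol, and the array carries 16 probes for them. Of these 10 genes, 9 passed the filter on dim probes and stand among 18935 genes tested in all. S100b did not pass, and its values are given without a test. Each gene is described by its brightest probe, with its other probes beside it, and changes of a gene are compared between arrays for 1 probe. Only the terms bright and dim, the array's median probe and the sums over gene lists set different probes side by side. Bright probes weigh most in those sums.

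The cells were primary cortical astrocyte cultures of strain C57B/6 mice aged P0-P2, grown to near confluence in medium with serum and treated for 2, 4 or 6 h. The 4 treatments were vehicle, 100 nM corticosterone, 500 nM RU486, and corticosterone with RU486 at the same concentrations, with 3 arrays for each of the 12 combinations and 36 in all. No genotype is named beyond the strain, and the growth protocol, which all groups share, allows cortex or hippocampus as the source. Serum itself carries steroid, and the labels do not say that it was stripped. Whether the 3 arrays of a group stem from different cultures is not stated, and the p-values therefore reflect the spread between arrays alone, which may be technical. In bulk RNA, fewer cells of a type and less RNA per cell cannot be told apart.

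Astrocytes maintain the brain's ion, water and glutamate balance and supply neurons with metabolites. Corticosterone, the main glucocorticoid of rodents, acts on these cells mostly through the glucocorticoid receptor, a transcription factor that binds DNA once the steroid is bound. RU486 (mifepristone) occupies the same receptor and blocks it. The 10 genes do different work in the astrocyte. Aldh1l1 (a folate enzyme), Aldoc (the brain form of aldolase, a glycolytic enzyme) and Acsbg1 (an acyl-CoA synthetase for long-chain fatty acids) are metabolic enzymes. Mlc1 is a membrane protein of the astrocyte end-foot whose human counterpart is mutated in a leukodystrophy, Gpr37l1 is an orphan receptor of glia, and Fgfr3 is a receptor for fibroblast growth factors. Sox9 and Id3 regulate transcription, S100b is a calcium-binding protein, and Ndrg2 is a cytoplasmic protein of the alpha/beta-hydrolase fold family.

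Among the members, on 34 arrays described below, Ndrg2 and Gpr37l1 had the lowest adjusted p for corticosterone with RU486 against corticosterone alone, in opposite directions, so the windows around their starts are shown. Both come from RefSeq on GRCm38.p6 and run 5′ to 3′ on the minus strand. Lower case letters lie before the annotated start, and capitals mark the 50 bases from the start on. The Ndrg2 window lies at chr14:51913955-51914254, around the most upstream of 3 annotated starts, and the gene spans chr14:51905271-51914004. The Gpr37l1 window lies at chr1:135167632-135167931, and the gene spans chr1:135160250-135167681.
Ndrg2: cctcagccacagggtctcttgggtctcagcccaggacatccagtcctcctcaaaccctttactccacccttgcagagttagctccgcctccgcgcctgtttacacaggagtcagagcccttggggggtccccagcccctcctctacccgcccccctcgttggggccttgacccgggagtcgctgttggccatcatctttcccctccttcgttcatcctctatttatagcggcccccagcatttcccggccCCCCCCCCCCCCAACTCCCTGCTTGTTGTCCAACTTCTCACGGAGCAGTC
Gpr37l1: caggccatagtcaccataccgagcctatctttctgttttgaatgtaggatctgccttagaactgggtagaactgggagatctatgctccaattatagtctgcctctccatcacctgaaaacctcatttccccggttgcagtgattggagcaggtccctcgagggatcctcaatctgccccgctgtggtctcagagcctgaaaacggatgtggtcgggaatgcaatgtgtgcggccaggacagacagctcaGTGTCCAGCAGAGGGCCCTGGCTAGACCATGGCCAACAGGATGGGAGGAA

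The letters AGAACA or TGTTCT, the half-site that the glucocorticoid receptor recognises, were searched on both strands. Neither window shown holds a half-site, and neither do the 2 other Ndrg2 windows. Of the 10 genes, 9 have windows in the RefSeq table, 13 in all, and 0 of these 13 hold a half-site. A half-site stood in 19.0% of all 32851 windows of the same length. The full site, AGAACA and TGTTCT with 3 bases between them, stood in 3 of the 32851 windows and in no window of a member. Sox9 was not matched. These counts describe the letters within 250 bases before and 50 bases after the starts, and no more distant sequence was examined.

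A pair of arrays stood apart from the rest. The median correlation of an array with all others across genes was between 0.960 and 0.990 for 34 arrays. It was 0.757 for vehicle 6 h replicate 1, and 0.886 for the third array of corticosterone with RU486 at 6 h. The astrocyte genes set these 2 arrays apart as well, as the plot of both arrays against the rest of their groups shows. On vehicle 6 h replicate 1, the log2 intensity of Acsbg1 was 6.92 against 10.97 and 11.22 on the other 2 arrays of its group, that of Aldh1l1 was 7.71 against 11.10 and 11.15, and that of Gpr37l1 was 7.39 against 10.03 and 10.18. Mlc1 went the other way there, at 8.65 against 6.67 on both others. On corticosterone with RU486 6 h replicate 3, the difference from the mean of the other 2 arrays was -3.76 for Aldh1l1, -2.08 for Fgfr3, -2.05 for Acsbg1 and -1.85 for Gpr37l1. For Ndrg2 it was -0.16, for Aldoc -0.13 and for Sox9 0.045. The main results are therefore given with all 36 arrays and with the 34 that remain without these 2. Both are 6 h arrays, and all 12 groups share the estimate of a gene's spread. Without them, differences between groups of 2 h or of 4 h keep their size, while their standard errors and adjusted p change.

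**Figure D1:**
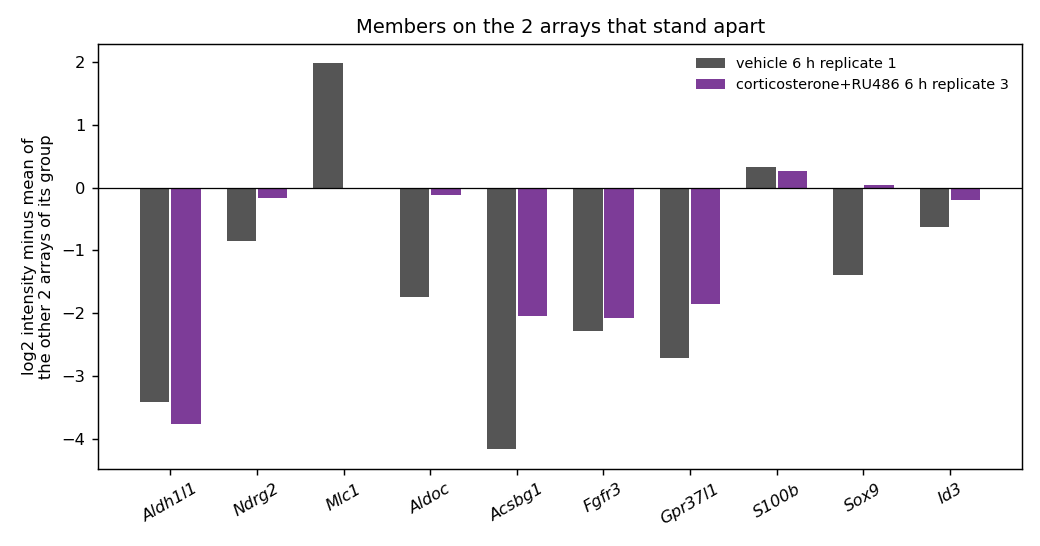
Bars give the log2 intensity of each of the 10 genes on an array that stands apart, minus the mean of the other 2 arrays of its group (dark grey, vehicle 6 h replicate 1; purple, corticosterone with RU486 6 h replicate 3). Aldh1l1 is lower on both, at -3.42 and -3.76, while Mlc1 is higher by 1.98 on the vehicle array alone.

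Markers of other cells moved with these 2 arrays in part. The log2 of the summed intensity of the 9 tested members was 14.8 to 15.49 on the 34 arrays and 13.75 on vehicle 6 h replicate 1. On the other array that stands apart it was 15.02, within that range. For 49 further astrocyte genes it was 17.55 to 18.12 on the 34 arrays, 17.33 on vehicle 6 h replicate 1 and 17.52 on the other array that stands apart. For 10 neuronal genes it was 12.71 to 13.47 on the 34 arrays, and 13.64 and 13.94 on the 2 arrays. For 11 genes of the oligodendrocyte lineage it was 14.26 to 14.93 on the 34 arrays, and 15.3 and 14.61 on the 2 arrays. Sums for 12 microglial, 8 fibroblast or meningeal, 5 ependymal or choroid plexus and 13 cell cycle genes lay within the range of the 34 arrays on both of these arrays, and the sum for 9 endothelial genes was 10.52 and 10.57 against 10.55 to 10.97. Such sums are set mostly by the brightest genes of a list, and single genes left their ranges in both directions. On vehicle 6 h replicate 1, Cdk1 (cell cycle) was at 6.59 against 10.41 to 12.11 on the 34 arrays, and C1qb (microglia) at 6.46 against 8.45 to 10.16. On the same array Ctss (microglia) was at 9.08 against 6.70 to 7.74, and Ccna2 (cell cycle) at 8.51 against 6.47 to 6.93. Among defining markers, the median log2 intensity over the 34 arrays was 7.95 for Syt1, 12.12 for Map2, 6.92 for Tubb3 and 6.59 for Slc17a7, all neuronal. It was 8.39 for Cx3cr1, 6.77 for P2ry12 and 7.91 for Aif1, all microglial. The array medians of all probes were 6.79 to 6.80, so Slc17a7 and P2ry12 lay below them. Of the endothelial markers, Pecam1 and Kdr, at 6.74 and 6.57, were below the array medians, while Cdh5 was at 6.89 and Slco1a4 at 9.68.

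Most of the astrocyte genes were bright in these cultures. Aldh1l1, Ndrg2, Aldoc, Acsbg1, Gpr37l1, Sox9 and Id3 exceeded the array's median probe on all 36 arrays, and Fgfr3 did on 34. Mlc1 and S100b were dim. Mlc1 exceeded the array's median on 11 arrays, and S100b on 1, vehicle 6 h replicate 1. S100b ranged from 6.38 to 6.87 over all 36 arrays, and its group medians ranged from 6.39 at 4 h of corticosterone to 6.66 at 6 h of corticosterone. No background was subtracted from these intensities, so differences of dim probes such as these are understated.

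**Figure D2:**
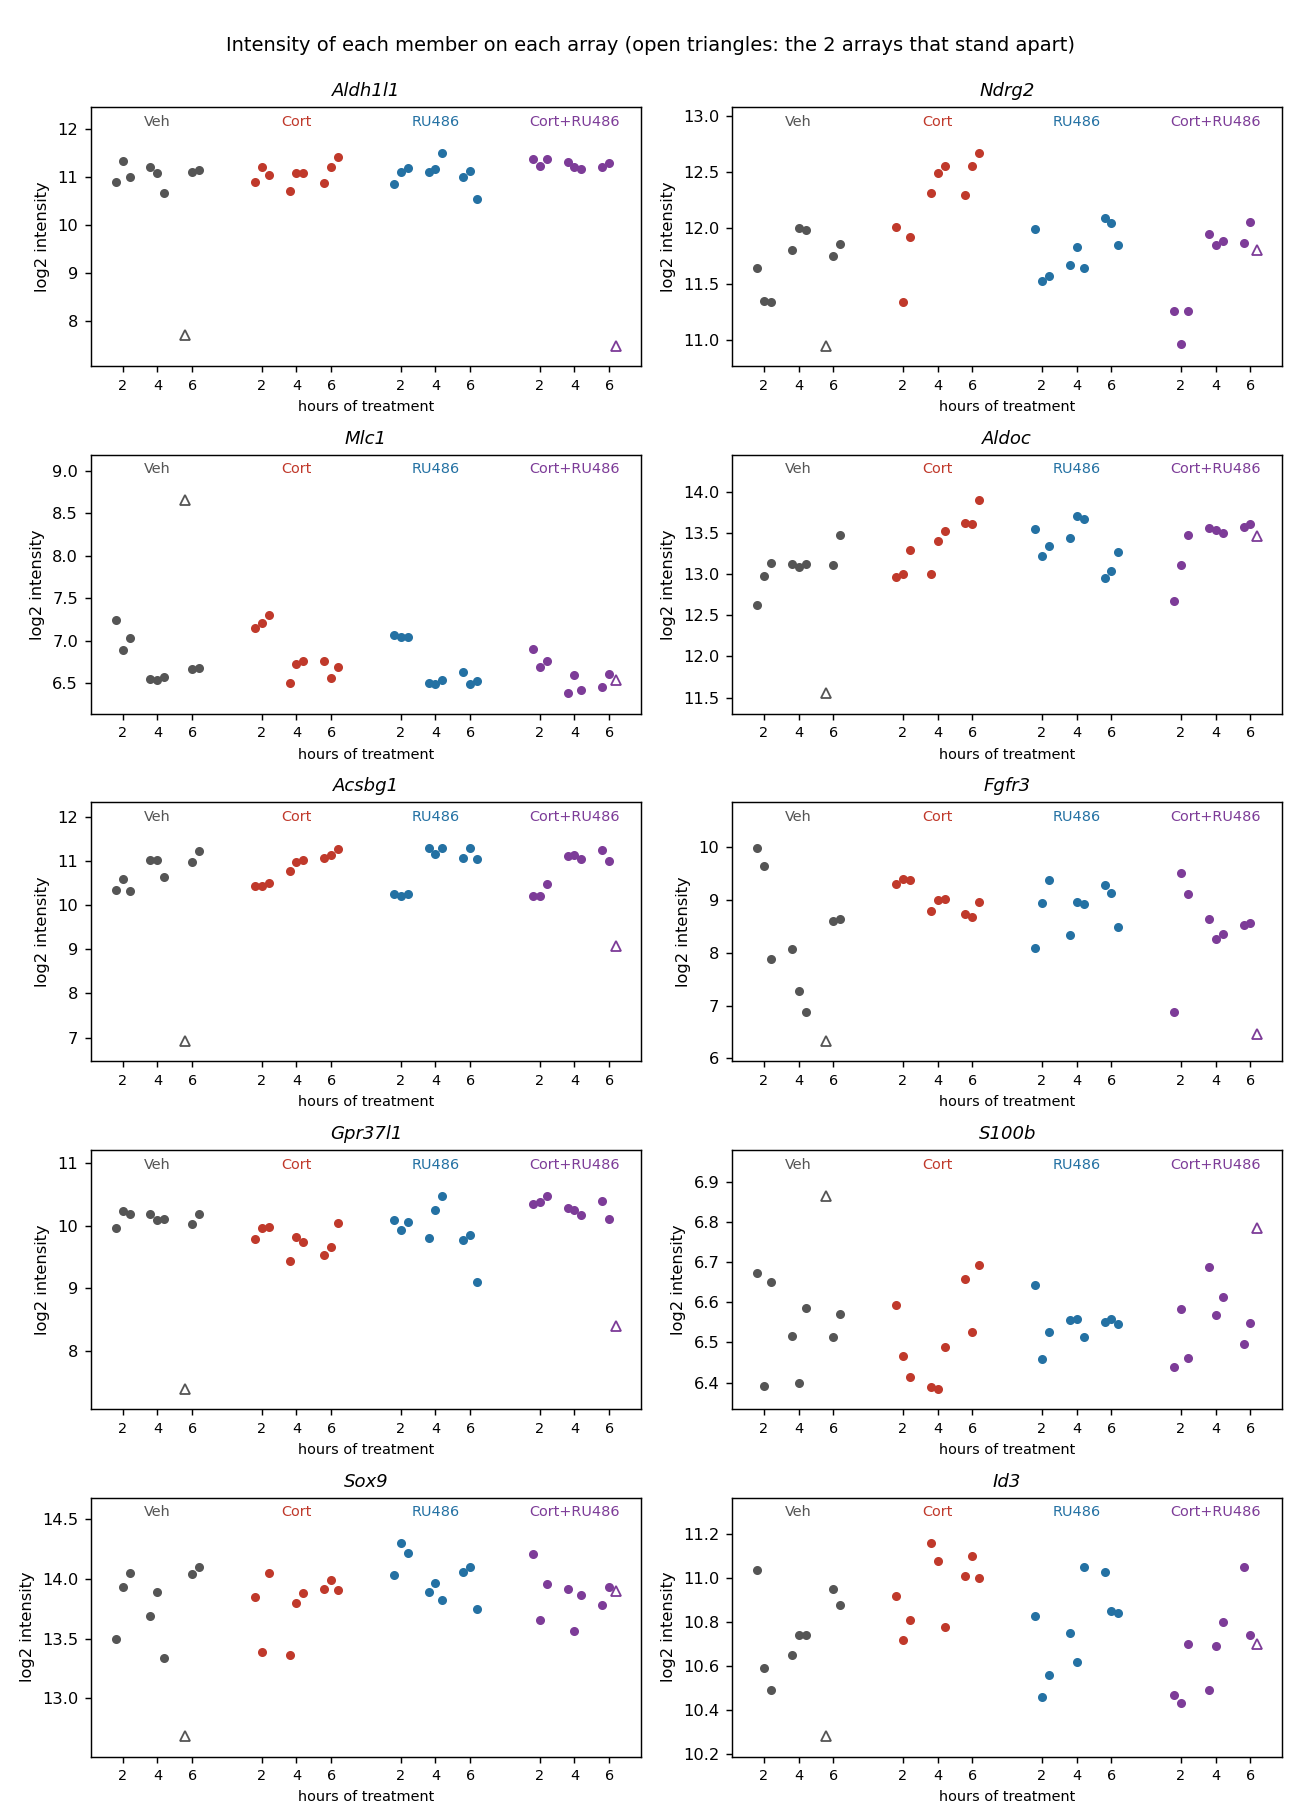
Each point is the log2 intensity (vertical axis) of a gene's brightest probe on 1 array, with the 3 arrays of each treatment and time side by side at 2, 4 and 6 h (horizontal axis). Open triangles are the 2 arrays that stand apart, and Ndrg2 is at 12.29 to 12.67 on the 6 corticosterone arrays of 4 and 6 h, above all others.

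The first comparison asked whether corticosterone alone changed the astrocyte genes. Ndrg2 rose, and it was the member that did so in both sets of arrays. Its log2 intensity in vehicle was 11.64, 11.35 and 11.34 at 2 h, 11.80, 12 and 11.98 at 4 h, and 10.95, 11.75 and 11.86 at 6 h. With corticosterone it was 12.01, 11.34 and 11.92 at 2 h, 12.31, 12.49 and 12.55 at 4 h, and 12.29, 12.55 and 12.67 at 6 h. The groups overlapped at 2 h and were apart at 4 and 6 h, also without the 2 arrays. Averaged over the times, Ndrg2 in log2 units was 0.61 higher (SE 0.11; adjusted p = 0.000591 in limma), and 0.51 higher on the 34 arrays (SE 0.09, adjusted p = 0.000132). By time, the difference was 0.32 at 2 h (adjusted p = 1), 0.52 at 4 h (SE 0.18, adjusted p = 0.226) and 0.98 at 6 h (SE 0.18, adjusted p = 0.00286). With the 34 arrays it was 0.52 at 4 h (SE 0.14, adjusted p = 0.0202) and 0.70 at 6 h (SE 0.16, adjusted p = 0.0128). The second, dimmer Ndrg2 probe was 0.74 higher on average over the times (adjusted p = 0.0501), and 0.57 higher on the 34 arrays (adjusted p = 0.000613).

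Gpr37l1 lay lower with corticosterone, which passed the test on the 34 arrays alone. At 4 h its log2 intensity was 10.19, 10.09 and 10.11 in vehicle and 9.44, 9.81 and 9.74 with corticosterone, and these groups did not overlap. At 6 h the vehicle arrays other than the one apart had 10.03 and 10.18, and corticosterone had 9.53, 9.65 and 10.05, which overlap. Gpr37l1, averaged over the times, fell by 0.35 on the 34 arrays (SE 0.10, adjusted p = 0.0177). With all 36 arrays, vehicle 6 h replicate 1 at 7.39 among them, the mean difference was -0.05 (SE 0.26, adjusted p = 0.948).

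Fgfr3 was the least even of the members, with a standard deviation of 0.64 within groups on the 34 arrays, where that of the other 8 tested members was 0.10 to 0.22. At 4 h it was 8.06, 7.28 and 6.87 in vehicle and 8.79, 9.00 and 9.01 with corticosterone. The difference of 1.53 at 4 h passed the test on the 34 arrays (SE 0.47, adjusted p = 0.0401) and did not with all 36 (SE 0.62, adjusted p = 0.355). At 2 h vehicle was 9.98, 9.64 and 7.88 and corticosterone 9.29, 9.39 and 9.37, so the vehicle arrays lay on both sides of the corticosterone arrays. The second Fgfr3 probe exceeded the array's median on 11 arrays. At 4 h it differed by 0.27 (SE 0.155, adjusted p = 0.661, and 0.305 on the 34 arrays), in the same direction and short of the threshold. Averaged over the times it differed by 0.021 (adjusted p = 0.929), and by 0.011 on the 34 arrays (adjusted p = 0.965).

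Aldoc was 0.46 higher averaged over the times (SE 0.16, adjusted p = 0.136) and 0.26 higher on the 34 arrays (SE 0.10, adjusted p = 0.0763), short of the threshold in both. Its dimmer probe passed, with a rise of 0.57 (SE 0.15, adjusted p = 0.0314), and of 0.42 on the 34 arrays (SE 0.10, adjusted p = 0.00541). At 6 h Aldoc by its brightest probe was 11.55, 13.11 and 13.48 in vehicle and 13.63, 13.61 and 13.90 with corticosterone. These groups did not overlap. The probes of Aldoc thus differ in whether they pass.

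The other members did not pass the test for corticosterone against vehicle. Id3 was 0.25 higher (SE 0.09, adjusted p = 0.169), and 0.18 higher on the 34 arrays (SE 0.08, adjusted p = 0.161). In the 34-array fit Aldh1l1 differed by -0.0019 (SE 0.09, adjusted p = 0.995), Acsbg1 by 0.05 (SE 0.06, adjusted p = 0.73), Sox9 by -0.05 (SE 0.10, adjusted p = 0.834) and Mlc1 by 0.09 (SE 0.05, adjusted p = 0.279). With all 36 arrays the differences of Aldh1l1 and Acsbg1 were 0.38 and 0.51, with standard errors of 0.39 and 0.35. The second probes of Aldh1l1, Acsbg1 and Sox9 differed by 0.083, 0.49 and 0.30 with all 36 arrays (adjusted p = 0.688, 0.484 and 0.71), and by 0.17, 0.085 and -0.19 on the 34 arrays (adjusted p = 0.182, 0.471 and 0.449). Mlc1, Gpr37l1, Id3 and S100b have 1 probe each.

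These counts stand beside the shares of all genes called. Averaged over the times, 1 of the 9 tested members rose and 0 fell, where 2.96% of all genes were called. The 34-array fit called 1 that rose and 1 that fell, where 12.4% were called. At 2 h 0 members were called in either set, against 0.121% of all genes and 0.676% on the 34 arrays, with 0 and 1 members at an unadjusted p under 0.05. At 4 h 0 were called with all 36 arrays (0.829% of all genes; 2 members at an unadjusted p under 0.05), and on the 34 arrays 2 rose, Ndrg2 and Fgfr3 (8.83%). At 6 h Ndrg2 alone was called in both sets, against 1.01% of all genes and 1.56% on the 34 arrays. The median difference of the 9 members averaged over the times was 0.38, and 0.09 on the 34 arrays, beside -0.03 and -0.0037 for all genes. With all arrays, the groups at 4 h did not overlap for 4 of the 9 members, Ndrg2, Fgfr3, Gpr37l1 and Id3, where they did not for 34.0% of all genes. At 6 h they did not overlap for 4, Ndrg2, Aldoc, Fgfr3 and Id3, against 13.2% of all genes.

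The next comparison asked what RU486 did when it was given with corticosterone. Ndrg2 was lower at each of the 3 times. With both compounds its log2 intensity was 11.26, 10.97 and 11.26 at 2 h, 11.95, 11.85 and 11.88 at 4 h, and 11.87, 12.05 and 11.80 at 6 h. At each time all 3 arrays lay below all 3 arrays of corticosterone alone. On average over the times Ndrg2 fell by 0.58 (SE 0.11, adjusted p = 0.000342), and by 0.56 on the 34 arrays (SE 0.09, adjusted p = 1.3e-05). The differences were -0.60 at 2 h, -0.56 at 4 h and -0.59 at 6 h, none of which passed with all 36 arrays (adjusted p = 0.127, 0.0956 and 0.102). All 3 passed on the 34 arrays, with adjusted p = 0.00931 at 2 h, 0.00726 at 4 h and 0.0465 at 6 h. The second Ndrg2 probe differed by -0.57 over the times (adjusted p = 0.0808), and fell by 0.37 on the 34 arrays (adjusted p = 0.00951).

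Id3, an inhibitor of basic helix-loop-helix transcription factors, was the other member lower with both compounds in both sets of arrays. Its log2 intensity was 10.92, 10.72 and 10.81 at 2 h of corticosterone and 10.47, 10.43 and 10.70 with RU486 added, and these groups did not overlap. At 4 h it was 11.16, 11.08 and 10.78 against 10.49, 10.69 and 10.80, and at 6 h 11.01, 11.10 and 11.00 against 11.05, 10.74 and 10.70, where the groups overlap. On average over the times Id3 fell by 0.28 (SE 0.09, adjusted p = 0.0453), and by 0.26 on the 34 arrays (SE 0.08, adjusted p = 0.0152). The call with all 36 arrays lies close to the threshold: it was lost, at adjusted p = 0.0518 to 0.063, with the replicate block, with no filter on dim probes, with all probes tested separately and with an intensity trend. It was also lost in 13 of the 18 fits that left out 1 array of these groups.

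Gpr37l1 rose and Mlc1 fell with both compounds on the 34 arrays. Gpr37l1 was 9.79, 9.96 and 9.98 at 2 h of corticosterone and 10.34, 10.38 and 10.48 with RU486 added, with no overlap. At 4 h it was 9.44, 9.81 and 9.74 against 10.28, 10.25 and 10.17, again with no overlap. The mean over the times was 0.52 higher on the 34 arrays (SE 0.10, adjusted p = 0.000162) and 0.31 higher with all 36 (SE 0.26, adjusted p = 0.555), where the array apart in the group with both compounds had 8.39. Mlc1 was 7.15, 7.21 and 7.30 at 2 h of corticosterone and 6.90, 6.69 and 6.76 with RU486 added. These groups did not overlap, and averaged over the times Mlc1 fell by 0.26 on the 34 arrays (SE 0.05, adjusted p = 0.000407), while the same difference had an adjusted p of 0.352 with all 36 arrays (SE 0.16). From 4 h on Mlc1 lay below the array's median in both groups.

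Aldh1l1, Aldoc, Acsbg1, Fgfr3 and Sox9 did not pass when RU486 was added. In the 34-array fit Aldh1l1 was 0.21 higher (SE 0.09, adjusted p = 0.0919) and the difference of Fgfr3 was -0.54 (SE 0.28, adjusted p = 0.155). Aldoc differed by 0.037, Sox9 by 0.065 and Acsbg1 by -0.011. With all 36 arrays the differences were -0.21 for Aldh1l1, -0.77 for Fgfr3, 0.023 for Aldoc, 0.070 for Sox9 and -0.24 for Acsbg1. The probes disagree for 2 of these genes. The dimmer Aldoc probe fell by 0.44 on the 34 arrays (adjusted p = 0.00121) and the dimmer Acsbg1 probe fell by 0.20 (adjusted p = 0.0241). Neither passed with all 36 arrays, at -0.37 (adjusted p = 0.127) and -0.42 (adjusted p = 0.518).

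Of the 9 tested members, 2 fell and 0 rose with RU486 added to corticosterone, averaged over the times, where 12.9% of all genes were called. The 34-array fit called 3 that fell and 1 that rose, where 31.2% were called. By time, 0 members were called at 2, 4 or 6 h with all 36 arrays, against 0.782%, 3.15% and 1.4% of all genes, and 1, 2 and 1 members had an unadjusted p under 0.05. Without the 2 arrays 2 were called at 2 h (Ndrg2 and Mlc1, 10.3% of all genes), 2 at 4 h (Ndrg2 and Gpr37l1, 18.2%) and 1 at 6 h (Ndrg2, 4.47%). The groups did not overlap for 5 members at 2 h (Aldh1l1, Ndrg2, Mlc1, Gpr37l1 and Id3), 5 at 4 h (Aldh1l1, Ndrg2, Acsbg1, Fgfr3 and Gpr37l1) and 2 at 6 h (Ndrg2 and Fgfr3). The share of all genes with no overlap was 26.9% at 2 h, 47.5% at 4 h and 19.4% at 6 h. The median difference of the members averaged over the times was -0.24, and -0.01 on the 34 arrays, beside 0.0067 and -0.01 for all genes.

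Markers of other cells were compared in the same fit. Averaged over the times, it called 2.96% of all genes with corticosterone (12.4% on the 34 arrays) and 12.9% with RU486 added (31.2%). Of 10 neuronal genes tested, all lay lower with corticosterone averaged over the times with all 36 arrays, and 1 passed, Syn1 (2 on the 34 arrays, with Gap43). Their median difference was -0.18, and -0.12 on the 34 arrays. At 2 h, 5 of the 10 neuronal genes lay higher with corticosterone. At 6 h their median difference was -0.34, and -0.10 on the 34 arrays. With RU486 added 3 rose, Stmn2, Syn1 and Gap43 (3 rose and 1 fell on the 34 arrays). The log2 of their summed intensity at 4 h was 13.33 to 13.47 in vehicle, 12.97 to 13.17 with corticosterone and 13.36 to 13.43 with both compounds. At 6 h, without the arrays that stand apart, it was 13.21 to 13.42, 13.07 to 13.16 and 13.37 to 13.38 in the same order. With RU486 alone the sum was 13.21 to 13.32 at 2 h, 13.36 to 13.42 at 4 h and 13.05 to 13.15 at 6 h, there about as low as with corticosterone. Of the other lists, averaged over the times with all 36 arrays, 0 genes passed with corticosterone, 1 microglial gene and 1 fibroblast or meningeal gene rose with RU486 added, and 2 cell cycle genes rose and 2 fell. On the 34 arrays 1 oligodendrocyte gene rose with corticosterone, and 1 microglial and 1 fibroblast or meningeal gene fell. Of the cell cycle genes 2 rose and 2 fell there. With RU486 added, 2 microglial and 2 fibroblast or meningeal genes rose on the 34 arrays. In the same fit 1 ependymal or choroid plexus gene fell, and 4 cell cycle genes rose and 3 fell. The part of these cells in the changes of the members was not tested.

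**Figure D3:**
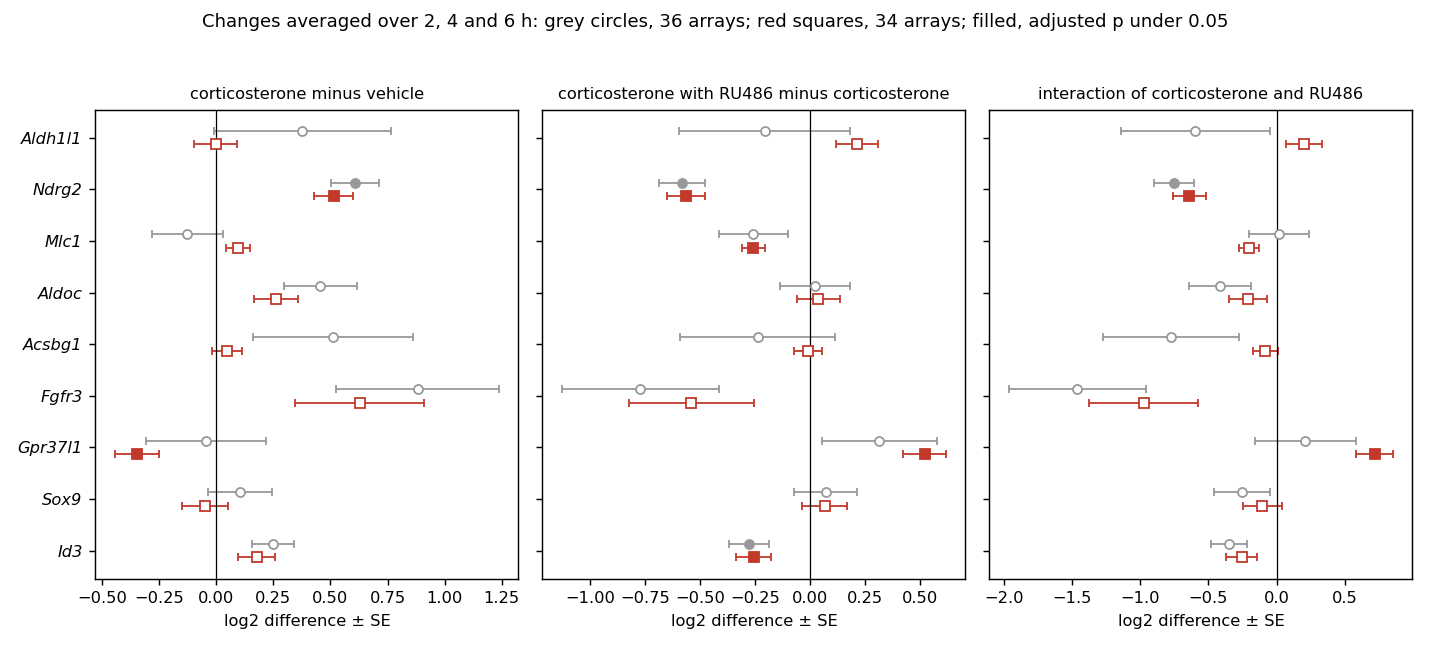
Points give the log2 difference (horizontal axis) of each tested member averaged over 2, 4 and 6 h, with bars of 1 standard error, for corticosterone minus vehicle, corticosterone with RU486 minus corticosterone, and the interaction of both compounds. Grey circles use 36 arrays, red squares 34, and filled points passed at an adjusted p under 0.05. Ndrg2 passed in all 3 panels in both sets, at 0.61, -0.58 and -0.75 with 36 arrays.

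RU486 without corticosterone and the full combination were also set against vehicle. In the limma fit no member was called for RU486 against vehicle, averaged over the times, in either set of arrays, against 0.0739% of all genes and 1.49% on the 34 arrays. At an unadjusted p under 0.05 there were 2, Aldoc and Sox9, and 1 on the 34 arrays, Aldoc. No member was called for the combination against vehicle, against 0.512% of all genes and 6.51% on the 34 arrays, and 2 members had an unadjusted p under 0.05 (3 on the 34 arrays). Ndrg2 with RU486 alone was 11.99, 11.53 and 11.57 at 2 h, 11.67, 11.83 and 11.64 at 4 h, and 12.09, 12.04 and 11.85 at 6 h. Averaged over the times it differed from vehicle by 0.17 with RU486 alone (adjusted p = 0.562) and by 0.03 with both compounds (adjusted p = 0.929). These misses do not show that the levels were alike. All these comparisons share the vehicle arrays or the corticosterone arrays with those above.

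The interaction, which asks whether the effect of corticosterone differed with and without RU486, was called for Ndrg2. The corticosterone effect was 0.75 smaller on the log2 scale with RU486 present, at -0.75 (SE 0.15, adjusted p = 0.00226), and on the 34 arrays it was -0.64 (SE 0.12, adjusted p = 0.00044). Gpr37l1 had an interaction of 0.72 on the 34 arrays (SE 0.14, adjusted p = 0.000524) and 0.21 with all 36 (SE 0.37, adjusted p = 0.808). So 1 of 9 members was called with all 36 arrays, where 5.97% of all genes were, and 2 of 9 on the 34 arrays, where 20.5% were. The difference of the corticosterone effect between 6 h and 2 h was called for 0 members in either set, against 0.0581% of all genes and 0.217% on the 34 arrays, and 3 members (0 on the 34 arrays) had an unadjusted p under 0.05.

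The levels of the members at 2, 4 and 6 h were also compared. In vehicle alone, limma's F test over 2, 4 and 6 h called 0 of the 9 members with all 36 arrays, where 10.5% of all genes were called, and 4 on the 34 arrays, Ndrg2, Mlc1, Acsbg1 and Fgfr3, where 16.5% were. Acsbg1 in vehicle was 10.33, 10.58 and 10.32 at 2 h and 11.03, 11.01 and 10.63 at 4 h. With RU486 it was 10.24, 10.20 and 10.26 at 2 h and 11.28, 11.15 and 11.29 at 4 h. In both treatments every 4 h array lay above every 2 h array. Mlc1 in vehicle was 7.24, 6.89 and 7.03 at 2 h and 6.54, 6.54 and 6.57 at 4 h, and every 4 h array was lower.

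A contrast of times averaged over the 4 treatments was added after these values were seen. Acsbg1 on the 34 arrays rose by 0.69 at 4 h (SE 0.05, adjusted p = 5.37e-11) and by 0.78 at 6 h (SE 0.06, adjusted p = 1.92e-11), each against 2 h. Ndrg2 rose by 0.48 and 0.55, and Aldoc by 0.28 and 0.31. Mlc1 fell by 0.48 at 4 h (adjusted p = 8.83e-10) and by 0.42 at 6 h (adjusted p = 2.7e-08). Fgfr3 fell by 0.58 at 4 h (SE 0.24, adjusted p = 0.0339) and Id3 rose by 0.27 at 6 h (SE 0.07, adjusted p = 0.00211). In that contrast 3 members rose and 2 fell at 4 h, where 61.6% of all genes were called, and 4 rose and 1 fell at 6 h, where 58.4% were. With all 36 arrays 1 rose and 1 fell at 4 h (37.7% of all genes) and 2 rose and 1 fell at 6 h (45.5%), the latter being Gpr37l1. Both arrays that stand apart are 6 h arrays, with Gpr37l1 at 7.391 and 8.395, and its call was lost on the 34 arrays. Without the 2 arrays 5 of 9 members moved at each time, a share near that of all genes. These are means over treatments, and single treatments differed: Ndrg2 with RU486 had a mean of 11.70 at 2 h and 11.71 at 4 h, Fgfr3 with RU486 8.80 and 8.73, and Aldoc with RU486 13.37 at 2 h and 13.09 at 6 h. Time of treatment and any step done separately for each time cannot be told apart.

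**Figure D4:**
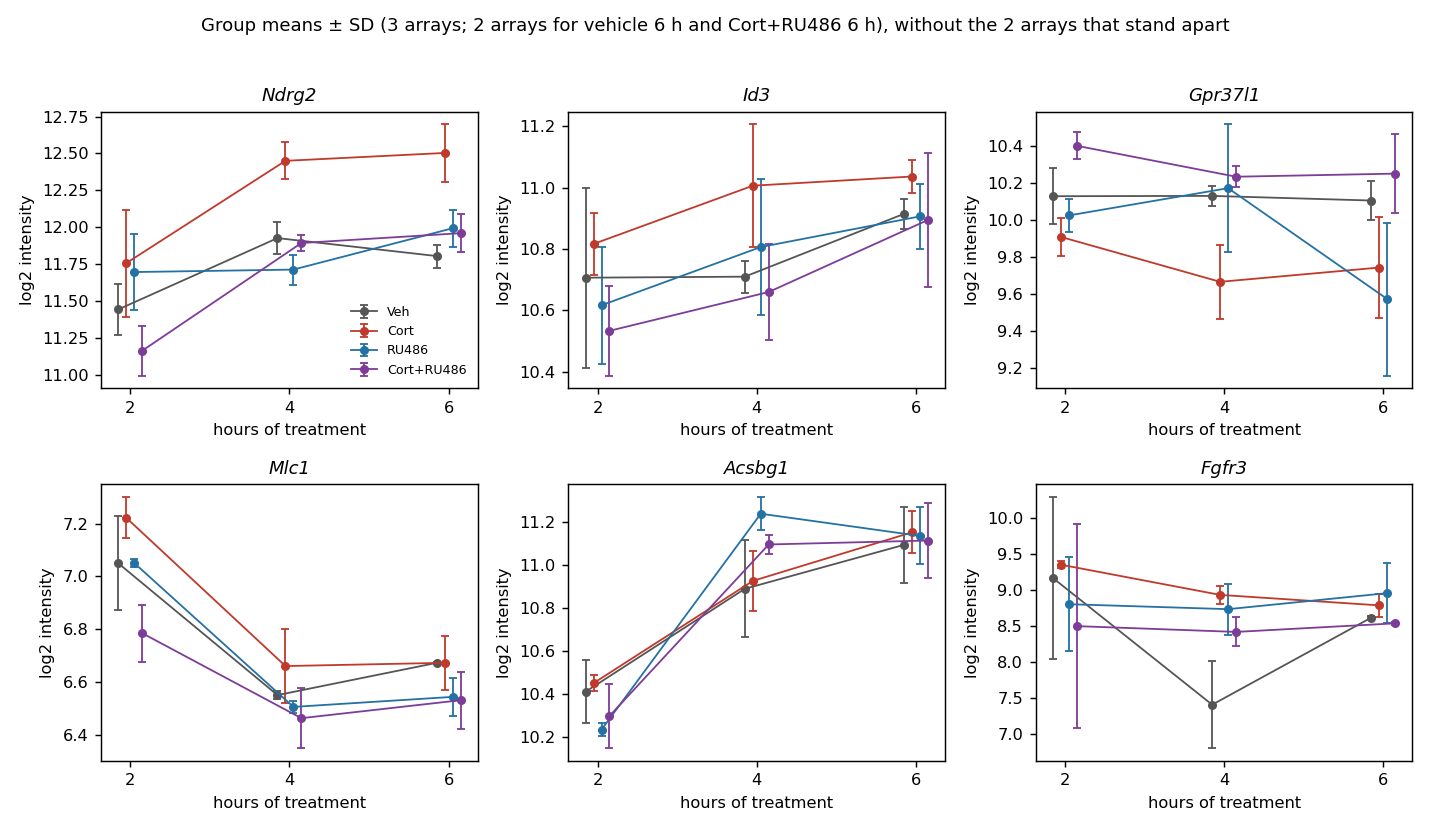
Each panel gives the mean log2 intensity (vertical axis) with the standard deviation of a member by hours of treatment (horizontal axis) and by treatment (grey, vehicle; red, corticosterone; blue, RU486; purple, both), without the 2 arrays that stand apart. Ndrg2 is highest with corticosterone at 4 and 6 h, Gpr37l1 at 2 h is highest with both compounds, and Acsbg1 is lowest at 2 h in all 4 treatments.

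The members did not vary as a block. Over the 12 group medians, which share the arrays and the normalization, Ndrg2 and Id3 had a Pearson correlation of 0.909, Ndrg2 and Gpr37l1 of -0.849, and Mlc1 and Acsbg1 of -0.812. Over the 34 single arrays the same pairs had 0.657, -0.513 and -0.776. Aldh1l1 and Gpr37l1 had 0.433 over the medians and 0.701 over the 34 arrays. The medians of Aldh1l1 spanned 0.37 on the log2 scale and those of Ndrg2 1.29.

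The genes whose 12 group medians were most like those of a member are given as a description. For Ndrg2 they were Arrdc2 (r = 0.953), B930095G15Rik (0.947) and Dedd2 (0.947), for Gpr37l1 Fam110b (0.964), Dhcr7 (0.963) and Fscn1 (0.959), and for Id3 they included Podxl (0.956) and Bok (0.952). For Acsbg1 they were Arpc2 (0.988), LOC269251 (0.988) and Exoc7 (0.986). The leading gene was Oc90 for Mlc1 (0.983), Maea for Fgfr3 (0.965), LOC100044177 for Aldoc (0.912), A230092L08Rik for Aldh1l1 (0.905) and Cox8c for Sox9 (0.893). No test was attached to these values, which were the highest among 18935 genes over 12 points.

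Other astrocyte genes moved in both directions too. Of 50 on a list chosen with earlier results of these data known, 49 were tested. With corticosterone against vehicle, averaged over the times, 2 rose and 2 fell, and on the 34 arrays 9 rose and 5 fell. Of all genes 2.96% were called, and 12.4% on the 34 arrays. Gjb6, the gap junction protein connexin 30, rose by 1.65 (SE 0.17, adjusted p = 2.65e-07) and Cbs, the cystathionine synthase of sulfur metabolism, by 0.42 (adjusted p = 0.0251). Slc14a1, a urea transporter, fell by 0.46 (adjusted p = 0.000612) and Ppp1r3c, a subunit that directs a phosphatase to glycogen, fell by 0.37 (adjusted p = 0.0066). Glul, the glutamine synthetase, was 0.52 higher (adjusted p = 0.125), and it rose by 0.73 on the 34 arrays (adjusted p = 1.21e-06). Gfap, the intermediate filament protein, was at -0.52 (adjusted p = 0.523), and it fell by 0.91 on the 34 arrays (adjusted p = 0.00209). The 4 genes called with all 36 arrays also passed on the 34, Gjb6 at 1.83, Cbs at 0.34, Slc14a1 at -0.42 and Ppp1r3c at -0.40. The median over the list was 0.014, and 0.043 on the 34 arrays.

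When RU486 was added to corticosterone, 4 of the 49 rose and 5 fell, and on the 34 arrays 7 rose and 13 fell. Of all genes 12.9% were called, and 31.2% on the 34 arrays. Gfap rose by 1.53 (SE 0.37, adjusted p = 0.00564), Nfib, a transcription factor of glial development, by 1.20 (adjusted p = 0.000854), Atp1b2, a subunit of the sodium pump, by 1.00 (adjusted p = 8.25e-05) and Slc14a1 by 0.29 (adjusted p = 0.0129). Gjb6 fell by 1.55 (adjusted p = 5.11e-07), Glul by 0.60 (adjusted p = 0.0216), Daam2, a regulator of Wnt signalling, by 0.43 (adjusted p = 0.0196), Mfge8, a secreted protein that aids phagocytosis, by 0.42 (adjusted p = 0.0176) and Cbs by 0.33 (adjusted p = 0.0359). Among the brightest of the list, Slc1a3, a glutamate transporter, was at -0.11 (adjusted p = 0.343). The 9 genes called with all 36 arrays passed on the 34 as well, among them Gfap at 1.79, Nfib at 1.18 and Gjb6 at -1.69. The median over the list was -0.078, and -0.0046 on the 34 arrays.

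Relatives of the members were counted in the same way, 33 of 35 being tested. The shares of all genes called were 2.96% with corticosterone and 12.9% with RU486 added, and 12.4% and 31.2% on the 34 arrays. With corticosterone Acsl3, like Acsbg1 an acyl-CoA synthetase, rose by 1.29 (SE 0.11, adjusted p = 4.43e-09), and Sox6, a transcription factor of the family of Sox9, fell by 0.65 (SE 0.15, adjusted p = 0.00986). On the 34 arrays 2 rose and 1 fell: Acsl3 was at 1.30, Sox6 at -0.60, and the added gene was Id1, of the family of Id3, which rose by 0.27 (adjusted p = 0.0103). With RU486 added, Acsl3 fell by 0.68 (adjusted p = 9.6e-05) and S100a6 by 0.29 (adjusted p = 0.0479), while Acsl6 rose by 0.38 (adjusted p = 0.000854) and S100a11 by 0.35 (adjusted p = 0.0159). On the 34 arrays 7 rose and 4 fell, and Id1 was among the latter, as it fell by 0.36 (adjusted p = 0.000262). Of the relatives of Ndrg2, Ndrg1 did not pass with corticosterone against vehicle in either set.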

How the data were processed

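RNA of astrocyte cultures was hybridised to 36 Illumina bead arrays, with 1 sample on each. The submitters' processing notes name GenomeStudio, without a version. The authors deposited linear intensities of 45281 probes, with no background subtracted. The sorted columns differ by at most 1.15%, as quantile normalization leaves them, and array medians are 110.5 to 111.2. Probe symbols came from a further deposited table, whose 72 columns of per-sample values match no label and were not used, so no detection calls entered. The number of arrays limits the precision of each value.

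The log2 of each intensity was taken. A probe was kept if it was above the median of its array on 3 arrays or more (28397 probes), and the brightest probe stood for each gene (18935 genes). Of their names, 11396 were current in the RefSeq table of GRCm38.p6, 3040 were updated by synonym and 4499 were kept. Groups followed the treatment and time in the labels. Means of the 12 groups were fitted by lmFit and eBayes of limma 3.58.1 under R 4.3.3, with Benjamini-Hochberg adjustment over all genes and a threshold of 0.05. The procedure was tested on simulated data.

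The members, gene lists and comparisons were chosen with earlier results of these data known. Named are the 10 members, list genes called with corticosterone or with RU486 added, a few list genes that were not, defining markers of other cells, and the 3 genes most like a member over the 12 group medians (for some members the first alone). Some genes that meet this rule are not reported here. Alternatives concerned the filter (none, or the 75th percentile), probes kept separate, background by normexp (offset 50), fits of only the compared groups, the replicate number as a block, weights per array, a robust prior with intensity trend, and arrays left out. Plots were drawn with matplotlib 3.10.9.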

Additional observations from a re-analysis of the deposited data

Results flagged for a closer look

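The interaction of corticosterone and RU486 on Ndrg2 passed the test of the difference itself, at -0.75 averaged over the times (limma adjusted p = 0.00226). At 6 h it was -1.07 (adjusted p = 0.027), and -0.73 on the 34 arrays (adjusted p = 0.0749). The remaining differences are those in which all arrays moved one way at 2 h and the other way at 4 h. The difference between both compounds and RU486 alone for Ndrg2 was -0.53 at 2 h and 0.18 at 4 h, a shift of 0.71 (adjusted p = 1, and 0.263 on the 34 arrays). The difference between RU486 and vehicle for Acsbg1 was -0.18 at 2 h and 0.35 at 4 h, a shift of 0.53 (adjusted p = 0.999, and 0.0834 on the 34 arrays). Against corticosterone, RU486 gave -0.22 at 2 h and 0.31 at 4 h for Acsbg1, a shift of 0.53 (adjusted p = 1, and 0.0772 on the 34 arrays). The last 3 shifts did not pass the test, and those of Acsbg1 share the RU486 arrays.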

How the results depend on the processing

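Ndrg2, by its brightest probe, kept its direction and its call for corticosterone against vehicle and for RU486 added to corticosterone, averaged over the times, under every alternative run, while its second probe missed both calls with all 36 arrays (adjusted p = 0.0501 and 0.0808). The 2 arrays that stand apart decide most other calls. Without them 2 members were called for corticosterone against vehicle at 4 h, 2 averaged over the times, 2, 2 and 1 for RU486 added to corticosterone at 2, 4 and 6 h, 4 averaged over the times, 2 for the interaction and 4 for vehicle over time. The counts were the same with all probes tested separately and without the 2 arrays, except that 0 were called at 6 h with RU486 added. With array weights and all arrays the counts were 5 at 4 h, 2 at 6 h and 4 averaged over the times for corticosterone, 2, 5, 2 and 4 for RU486 added at 2, 4 and 6 h and averaged, 1 for RU486 and 2 for both compounds against vehicle, 4 for the interaction and 4 for vehicle over time. Of all 18935 genes, the same fit called 6557, 1678 and 5319 for corticosterone in that order. With RU486 added it called 2694, 8391, 6246 and 9154. It called 2002 and 4525 for RU486 and for both compounds against vehicle, 7249 for the interaction and 5724 for vehicle over time. With only the groups compared in the fit, 3 members were called at 4 h and 0 at 6 h of corticosterone, and 1 at 2 h and 3 at 4 h with RU486 added. Of all genes, these fits called 2853 and 0 for corticosterone, and 904 and 5796 with RU486 added. For RU486 added, averaged over the times, 1 member was called with no filter on dim probes, with all probes separately and with the intensity trend, Id3 being lost.

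Leaving out each array in turn gave 1 to 4 members for corticosterone at 6 h, where vehicle 6 h replicate 2 or 3 gave 4. Over all genes these fits gave 97 to 4682 calls. Leaving out arrays gave 1 to 2 members for corticosterone averaged over the times (2 without vehicle 2 h replicate 1 or vehicle 6 h replicate 3), 1 to 2 for RU486 added, averaged, 0 to 1 for both against vehicle (1 without vehicle 6 h replicate 3) and 1 to 3 for the interaction (3 without vehicle 2 h replicate 1). The calls over all genes were 356 to 1165, 1834 to 2810, 31 to 576 and 802 to 2181, in the same order. Vehicle over time ranged from 0 to 5 members (5 without vehicle 6 h replicate 3), beside 699 to 7610 of all genes. The call of Id3 with RU486 added was lost in 13 of 18 such fits, and stayed without corticosterone 2 h replicate 2 or 4 h replicate 3 and without corticosterone with RU486 2 h replicate 3, 4 h replicate 3 or 6 h replicate 1.

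Directions turned for uncalled values. For corticosterone averaged over the times, without the 2 arrays, Aldh1l1 was -0.0019, Mlc1 0.094 (0.13 with array weights) and Sox9 -0.050 (-0.082 with array weights), and Gpr37l1 was 0.093 and 0.12 without vehicle 6 h replicate 2 or 3. Leaving out each array in turn gave -0.0019 to 0.57 for Aldh1l1, -0.24 to 0.094 for Mlc1, -0.35 to 0.12 for Gpr37l1 and -0.050 to 0.19 for Sox9, with one end of each range without vehicle 6 h replicate 1. With RU486 added, Aldh1l1 was 0.15 with array weights, 0.21 without the 2 arrays, and -0.42 to 0.21 with each array left out (0.21 without corticosterone with RU486 6 h replicate 3). Aldoc was -0.042 to 0.092 (-0.042 without corticosterone with RU486 2 h replicate 3, -0.029 without corticosterone 4 h replicate 1), and Sox9 -0.0066 with array weights. For RU486 against vehicle, Gpr37l1 was -0.20 without the 2 arrays, -0.16 with array weights and -0.20 to 0.27 with each array left out (-0.20 without vehicle 6 h replicate 1), and Id3 was -0.029 with array weights.

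Replicate numbers were not taken to pair the samples, since the deviations of same-numbered arrays did not correlate above 0.1 in every pair: over the groups and times they ranged from -0.785 to 0.782, both ends between the groups that hold the 2 arrays. At 2 h, corticosterone with and without RU486 correlated by 0.13 to 0.354 in all 3 pairs, and the block called 0 members there. With the replicate block 2 members were called at 6 h of corticosterone and 1 with RU486 added, averaged, beside 199 and 2554 of all genes. Over all genes, corticosterone averaged over the times gave 560 calls, 2352 without the 2 arrays, 5319 with array weights and 354 with only the groups compared, and RU486 added gave 2434, 5906, 9154 and 3566. Dim probes limit Mlc1, S100b and the second Fgfr3 probe.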
